A study of Mus musculus with 58 samples.

Results

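The 40 genes described here are the mouse homologs of human chromatin and transcription regulators whose mutations are linked to autism. They were given as a list of names, and the list was made with earlier results of these data known. All 40 were found among the 54532 genes of the RNA-seq tables and among the 18411 genes of the lysate RNA and footprint tables. They were measured in mouse striatum, the forebrain nucleus whose projection neurons govern movement and reward learning. Across 8 comparisons of del/+ with wt mice, none of the 40 genes passed an adjusted p of 0.05 in edgeR's quasi-likelihood test. Between the wt females of the 2 mouse lines 26 of the 40 (65%) did, a share near the 59.9% of all 19013 genes tested. In addition, 2 single libraries carried most members at the level of the other line.

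The 3g del/+ mice carry heterozygous premature stops, made by genome editing, in Taok2, Sez6l2 and Mvp, 3 genes of the 16p11.2 region. The 16p11.2 del/+ mice lack 1 copy of the whole region on mouse chromosome 7. Each line was compared with its own wt littermates. The RNA-seq animals were young adults by the study's methods and the age of the other animals is not given in the sources used here. The labels give the strain of every library as B6129S, and whether the 3g line goes back to 1 edited founder is not given in the sources used here. RNA-seq was made from 32 animals, with 4 libraries in each of the 8 groups of line, sex and genotype. A separate set of males gave 13 lysate RNA and 13 ribosome footprint libraries, 1 of each kind per animal, from 3 del/+ and 3 wt 3g mice and from 3 del/+ and 4 wt 16p11.2 mice, numbered here from 1 within a genotype in the order of their labels.

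Chromatin regulators set how accessible DNA is to the transcription machinery. Remodelling enzymes slide or evict nucleosomes with the energy of ATP, methyltransferases and demethylases write and erase marks on histone tails, reader proteins dock on those marks, and sequence-specific factors bring these complexes to chosen genes. In the brain such genes act from early development onwards, many of them are sensitive to the loss of 1 copy, and some, such as Foxp2, are transcription factors of striatal projection neurons. By role, the list holds 8 remodelling ATPases and partner subunits (Chd8, Chd2, Chd3, Chd7, Arid1b, Smarcc2, Adnp, Bcl11a) and 8 histone methyltransferases (Kmt2a, Kmt2c, Kmt5b, Ash1l, Setd5, Setd2, Ehmt1, Nsd1). It further holds a mixed group of 10 genes, among them histone demethylases, readers and adaptors (Kdm6b, Kdm5b, Phf21a, Zmynd11, Mbd5, Asxl3, Ankrd11, Auts2, Ubn2, Trip12). Also listed are the DNA methyltransferase Dnmt3a and the DNA demethylating enzyme Tet2. The remaining members are 10 DNA-binding factors (Foxp2, Tcf4, Tcf7l2, Tcf20, Ctcf, Myt1l, Satb1, Hivep2, Nfix, Pogz) and the Mediator kinase module subunits Med13 and Med13l. The kinase module is the detachable part of Mediator, the complex that links transcription factors to RNA polymerase.

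Total counts were 11711099 to 65529807 in the 3g RNA-seq libraries, 26592767 to 41300015 in the 16p11.2 RNA-seq libraries, 15102576 to 19122488 in lysate RNA and 342052 to 678130 in footprints. In the 3g line the 3 del/+ footprint libraries had 527917 to 678130 counts and the 3 wt ones 342052 to 422918. Markers of striatal projection neurons were present in every library. Of the targeted genes, Taok2, Sez6l2 and Mvp had log2 fold changes (del/+ over wt) of -0.021, -0.57 and -0.37 in 3g males and -0.024, -0.49 and -0.48 in 3g females, so Taok2 lay near 0 in RNA-seq of that line. 3g lysate RNA gave -0.11, -0.53 and -0.067. The same genes had -0.98, -1.24 and -1.01 in RNA-seq of 16p11.2 males and -1.06, -1.19 and -1.09 in females. In RNA-seq, 3 libraries stood apart. In 3g wt male 17 and in 16p11.2 del/+ male 4, the members and several abundant transcripts sat at the level of the other line. A library labelled as 16p11.2 del/+ female 1 held 38.6 CPM (counts scaled to a common library size) of the Y-linked Ddx3y and 0.46 CPM of Xist. For most main results, the values without them stand beside those results.

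In the 16 wt RNA-seq libraries, Chd3 had the highest counts of the members, at 622 to 881 CPM with a median of 687. Chd3 is an ATPase of the NuRD remodelling complex. Myt1l, a zinc finger factor that represses non-neuronal genes in neurons, followed at 274 to 427 CPM (median 341), and Smarcc2, a core subunit of the BAF complex, at 255 to 310.3 CPM (median 282). At the other end, Asxl3, a partner of a histone H2A deubiquitinase, had 6.53 to 11.6 CPM (median 9.02), Tcf7l2, an effector of Wnt signalling, had 3.02 to 9.71 CPM (median 4.29), and Adnp, a homeobox protein of the ChAHP complex, had 0.403 to 0.798 CPM (median 0.620). Adnp had 2 to 38 counts in a RNA-seq library and 664 to 1302 in a lysate RNA library, and how its reads were assigned is not given in the sources used here, so its RNA-seq values are uncertain and are not read as its level in striatum. CPM are not divided by transcript length, so these values do not rank the genes by molecules per cell. In bulk tissue, fewer cells of a type and less RNA per cell cannot be told apart.

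**Figure D1:**
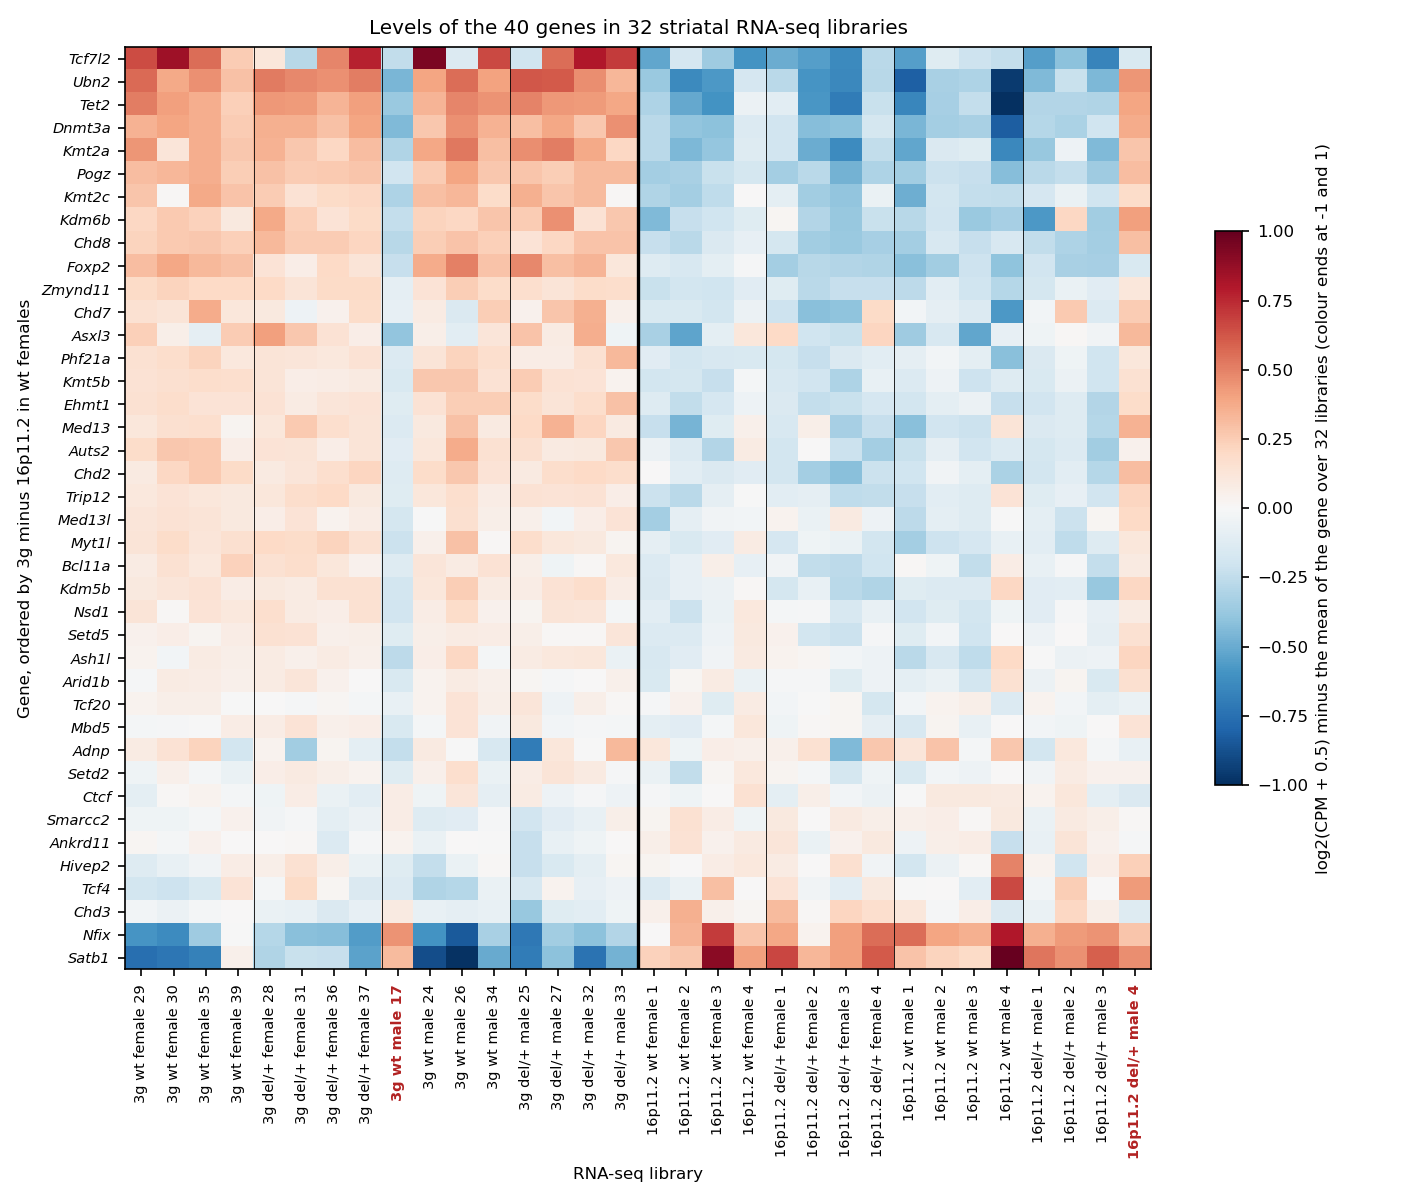
Levels of the 40 members in the 32 RNA-seq libraries, as log2(CPM + 0.5) minus each gene's mean over the 32 libraries; rows are genes ordered by the difference between 3g and 16p11.2 wt females and columns are libraries by line, sex and genotype. The change of colour follows the line rather than the genotype, except in 3g wt male 17 and 16p11.2 del/+ male 4, whose columns carry the colours of the other line.

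Members with the largest spread over the 16 wt libraries were Satb1, Nfix and Ubn2, with SDs of log2 level of 0.65, 0.53 and 0.52. Satb1, a chromatin organiser of neurons, ranged from 23.1 to 104.3 CPM with a median of 53.5. Nfix, a nuclear factor I protein, ranged from 43.2 to 136.2 CPM (median 86.1), and Ubn2, a subunit of the HIRA histone H3.3 chaperone complex, from 35.03 to 101.3 CPM (median 58.0). Tcf20 and Ctcf had the smallest spread over these pooled libraries, with SDs of 0.073 and 0.074. Tcf20 is a nuclear coregulator and Ctcf the protein that bounds chromatin loops. The median SD over the 40 members was 0.18, against 0.23 over the 16183 genes whose mean lay between the lowest and highest member means, 0.606 and 698 CPM. The lower end came from Adnp, so that range reaches below the levels of the other members. The 2 medians therefore do not compare genes of like level.

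The effect of genotype was first asked in each line and sex. In 3g males, 0 of 40 members were called at an adjusted p under 0.05 by edgeR and 0 passed an unadjusted p of 0.05, where 0% and 1.44% of the 19081 tested genes did. In 3g females, 0 of 40 were called and 3 passed unadjusted (0.00526% and 11% of 19024 genes). In 16p11.2 males, 0 were called and 2 passed unadjusted (0.106% and 5.82% of 17957 genes), and in 16p11.2 females 0 were called and 2 passed unadjusted (0.144% and 4.47% of 18067 genes). The shares of members at an unadjusted p under 0.05 were thus 0%, 7.5%, 5% and 5%. They rest on 0 to 3 genes each and are not read as different from the background. DESeq2 also called 0 members in 3 of these 4 comparisons, the exception being Foxp2 in 3g females. The median standard error of a member's log2 fold change was 0.10 and 0.039 in 3g males and females, and 0.11 and 0.075 in 16p11.2 males and females.

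The members' direction leaned upward in males and not in females. In 3g males 35 of 40 members had a log2 fold change above 0 with a median of 0.079, where 50% of all genes did and their median was -9.99e-05. In 16p11.2 males 31 of 40 members were above 0 with a median of 0.097, against 49.1% of all genes. In 3g females 19 of 40 were above 0 (median -0.0061, against 49.5% of all genes), and in 16p11.2 females 13 of 40 (median -0.022, against 49.6%). Among the groups of members, the 8 histone methyltransferases were all above 0 in 3g males (median 0.081, from 0.028 to 0.16) and in 16p11.2 males (median 0.11, from 0.049 to 0.24), and none of them passed the test. Of the mixed group of 10 genes with the demethylases, readers and adaptors, 9 were above 0 in both sets of males, and of the 8 remodellers 6. Dnmt3a and Tet2 were at 0.18 and 0.20 in 3g males and at 0.40 and 0.45 in 16p11.2 males, and Med13 and Med13l lay between 0.069 and 0.15 in both. DNA-binding factors were less uniform, with 8 of 10 above 0 in 3g males and 4 of 10 in 16p11.2 males. In females the methyltransferases had 4 of 8 above 0 in the 3g line and 2 of 8 in the 16p11.2 line.

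**Figure D2:**
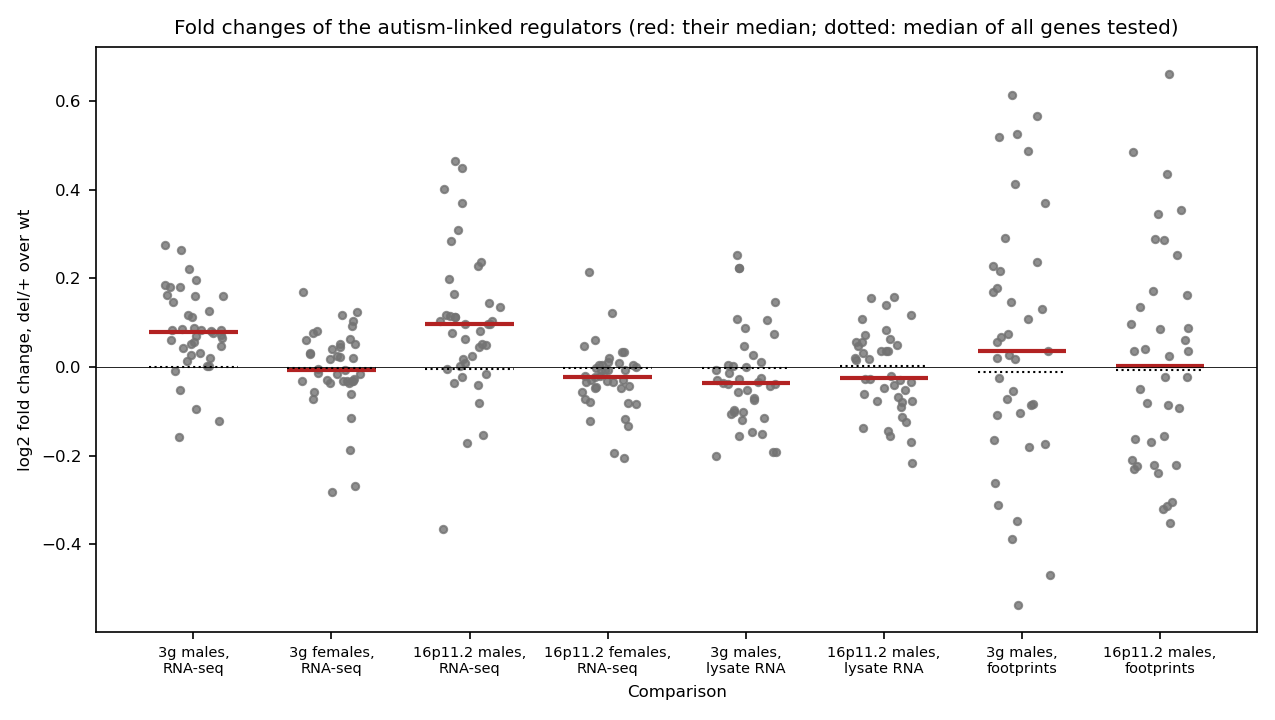
Log2 fold changes (del/+ over wt) of the members in the 8 genotype comparisons; each point is 1 gene, the red line is the median of the members and the dotted line the median of all genes tested. The points of both male RNA-seq comparisons lie mostly above 0 (35 and 31 of 40), those of both female comparisons lie around 0, and the footprint points spread widest.

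The upward lean in males depended on 1 library in each line. Without 3g wt male 17, 17 of 40 members were above 0 in 3g males and the median log2 fold change was -0.0023, with 49.3% of all genes above 0. Of the 8 histone methyltransferases, 2 were then above 0. Without 16p11.2 del/+ male 4, 22 of 40 were above 0 in 16p11.2 males and the median was 0.024, with 6 of the 8 histone methyltransferases above 0. Dnmt3a and Tet2 were then at 0.010 and 0.025 in the 3g line and at 0.21 and 0.24 in the 16p11.2 line. Leaving out 16p11.2 wt male 4 instead, which had the highest summed cortical markers, gave 33 of 40 and 0.13, and leaving out both number 4 males gave 25 of 40 and 0.051. Without 16p11.2 wt male 1 the values were 28 of 40 and 0.060. Male 17 was the library whose omission moved the fold change most for 26 of the 40 members in the 3g line, and del/+ male 4 for 24 of 40 in the 16p11.2 line. Without the library labelled del/+ female 1, 7 of 40 members were above 0 in 16p11.2 females, the median was -0.044, and 0 were called.

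**Figure D3:**
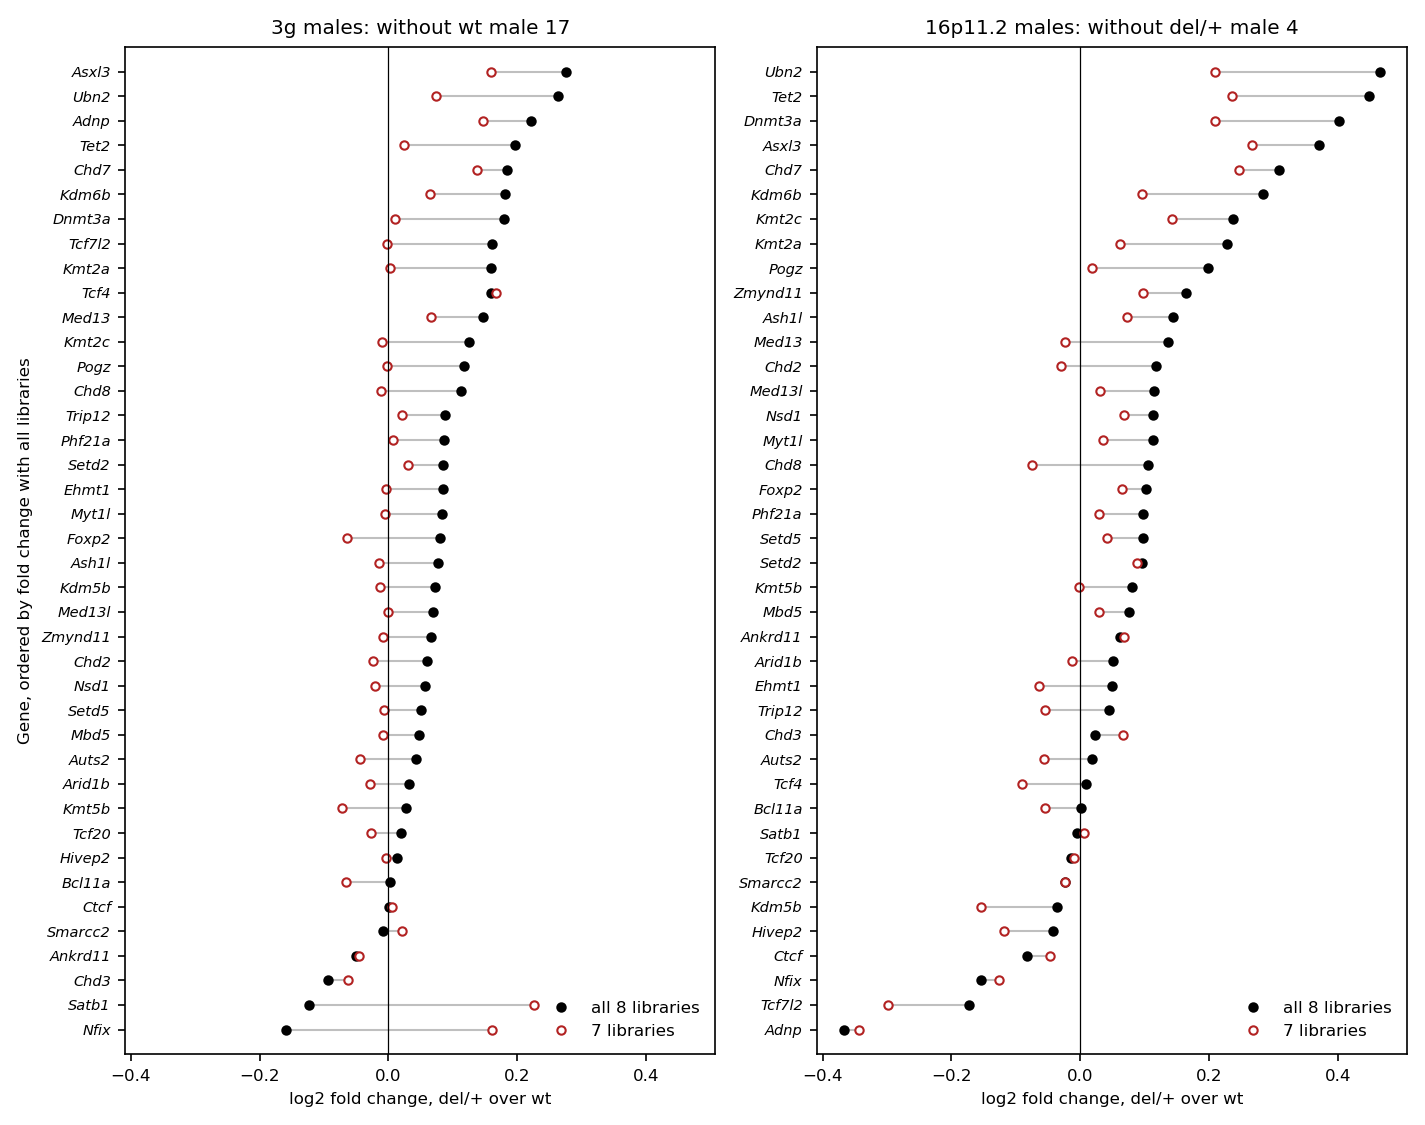
Log2 fold changes (del/+ over wt) of the 40 members in 3g males and 16p11.2 males, with all 8 libraries (black points) and with 7 (red open points; 3g wt male 17 or 16p11.2 del/+ male 4 left out). With 7 libraries the red points fall around 0 in 3g males (median -0.0023) and move towards 0 in 16p11.2 males (median 0.024).

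Ubn2 and Tet2, which the study chose on these samples from an autism gene database, show the pattern most plainly. Ubn2 had 116.3, 112.4, 98.3 and 89.4 CPM in 3g del/+ males, and 50.9 CPM in wt male 17 against 94.1, 105.9 and 95.2 CPM in the other wt males. Male 17 alone was low, and the other libraries of both genotypes overlapped. The log2 fold change was 0.26 (SE 0.20, adjusted p = 0.974 by edgeR), and it was 0.074 without male 17. In 16p11.2 males, Ubn2 had 49.0, 56.6, 49.1 and 91.2 CPM in del/+ males 1 to 4, and 37.02, 52.9, 53.9 and 34.2 CPM in the wt males. Here del/+ male 4 alone was high and the rest overlapped. The log2 fold change was 0.47 (SE 0.22, adjusted p = 0.742 by edgeR) and 0.21 without del/+ male 4. In females of both lines it was 0.076 and -0.0078.

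Tet2, the enzyme that oxidises 5-methylcytosine, repeated this. It had 81.4, 75.5, 72.8 and 70.8 CPM in 3g del/+ males, and 41.2 CPM in wt male 17 against 69.0, 76.6 and 75.0 CPM in the other wt males. The log2 fold change of 0.20 (SE 0.17, adjusted p = 0.974 by edgeR) became 0.025 without male 17. In 16p11.2 males Tet2 had 41.3, 41.1, 41.4 and 67.2 CPM in del/+ males 1 to 4 and 31.6, 39.9, 43.1 and 25.3 CPM in wt males. Only del/+ male 4 exceeded the highest wt value. The log2 fold change was 0.45 (SE 0.20, adjusted p = 0.742 by edgeR) and 0.24 without that library. Dnmt3a, which writes the mark that Tet2 oxidises, had 122.2, 119, 131.3 and 194 CPM in 16p11.2 del/+ males and 107.2, 117.1, 119.7 and 84.5 CPM in wt males. Its log2 fold change was 0.40 (SE 0.17, adjusted p = 0.742 by edgeR), and 0.21 without del/+ male 4.

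The position of each library was then read from the members themselves, on a scale set to 0 at the 3g wt female mean and to 1 at that for 16p11.2 wt females. It was taken as the median over the 26 members called between those groups, so the wt females chose the members and their own positions are a description. 3g wt male 17 lay at 1.01, and all 26 members were nearer the 16p11.2 level. For the remaining 15 of the 3g libraries it was -0.20 to 0.12. 16p11.2 del/+ male 4 lay at 0.012, with 21 of the 26 members nearer the 3g level, and the remaining 15 of its line were at 0.70 to 1.38. Other measures moved with these positions, and their part in them was not tested. 3g wt male 17 had 1356 CPM of Lars2 and 1444 CPM of Meg3, against 64.5 to 124 and 4679 to 5853 CPM in the rest of its line. Its summed oligodendrocyte markers were at 10881 CPM (others 4055 to 7430) and its summed markers of cortical excitatory neurons at 909 CPM (others 35.9 to 665). In 16p11.2 del/+ male 4, Lars2 was at 57.3 CPM, Meg3 at 5227 CPM and the oligodendrocyte sum at 5477 CPM, against 700 to 2329, 364 to 1939 and 8495 to 14118 CPM in the rest of its line. Its cortical sum of 801 CPM lay within the 746 to 1306 CPM of the rest of its line and above all 3g libraries but male 17. Its targeted genes went with its label: Taok2 was at 88.8 CPM, against 82.8 to 95.4 CPM in the other 16p11.2 del/+ libraries and 153 to 195 CPM in the wt ones, and Sez6l2 at 161.7 CPM, against 125 to 157 and 288 to 400 CPM. In 3g wt male 17 Sez6l2 was at 339 CPM, against 273 to 315 CPM in the other 3g wt and 182 to 225 CPM in the 3g del/+ libraries.

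**Figure D4:**
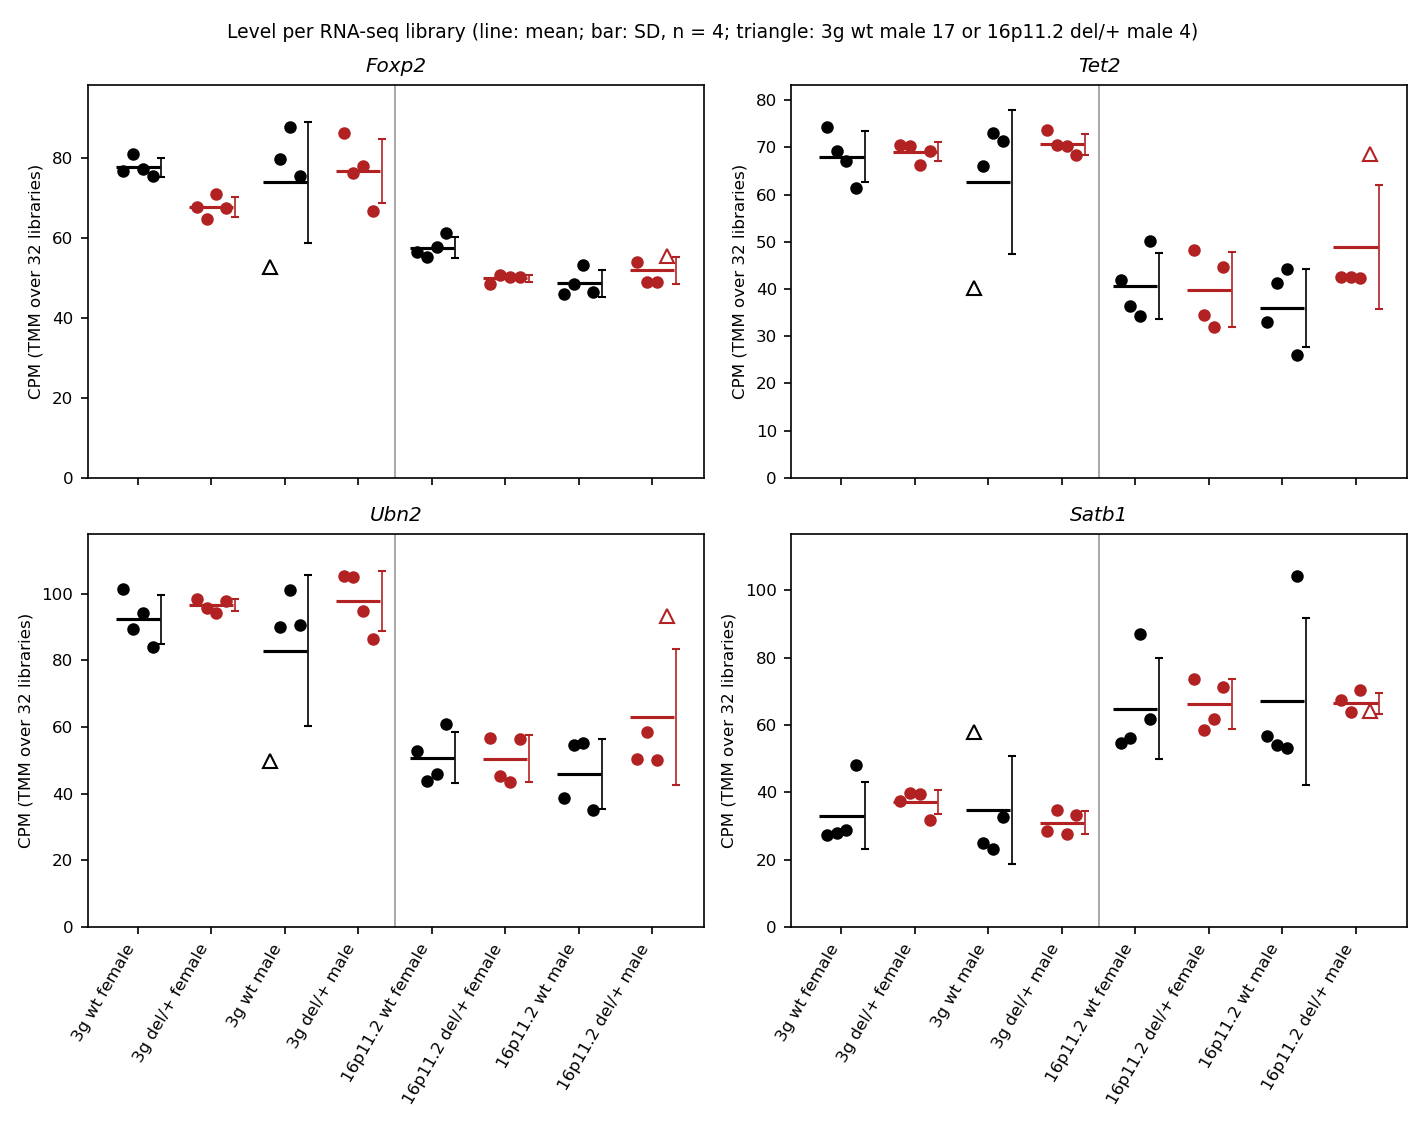
CPM of Foxp2, Tet2, Ubn2 and Satb1 in the 32 RNA-seq libraries by line, sex and genotype, scaled together over the 32 libraries; points are libraries, lines are means, bars are SD (n = 4), and triangles mark 3g wt male 17 and 16p11.2 del/+ male 4. For Tet2 and Ubn2 both triangles sit at the level of the other line, and for Foxp2 the del/+ females of each line lie below their wt females.

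Foxp2 was the member with the lowest unadjusted p in both sets of females. It encodes a forkhead repressor of striatal projection neurons that is tied to vocal learning and speech. In 3g females it had 70.5, 66.4, 75.3 and 70.1 CPM in del/+ and 80.6, 84.4, 79.1 and 77.1 CPM in wt libraries. Every del/+ value lay below every wt value. The means were 70.6 ± 3.63 and 80.3 ± 3.10 CPM (SD, n = 4), a log2 fold change of -0.19 (SE 0.043) with an adjusted p of 0.211 by edgeR. DESeq2 gave an adjusted p of 0.042 and edgeR without a filter on low counts 0.035, so the call depends on the setting. Leaving out each library in turn gave -0.22 to -0.16.

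In 16p11.2 females Foxp2 had 46.1, 47.4, 47.6 and 47.8 CPM in del/+ and 52.9, 52.2, 55.0 and 57.5 CPM in wt libraries. Again the groups did not overlap. The means were 47.2 ± 0.748 and 54.4 ± 2.41 CPM (SD, n = 4), and the log2 fold change was -0.20 (SE 0.057, adjusted p = 0.775 by edgeR). Without the library labelled del/+ female 1 it was -0.19. The groups of 4 of the 40 members did not overlap in 3g females (Foxp2, Mbd5, Chd3 and Kmt5b), where 5.66% of all genes did not, and Foxp2 with Chd2 did not in 16p11.2 females, where 2.91% did not.

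In males the genotypes overlapped for Foxp2. 3g del/+ males had 95.2, 81.7, 81.0 and 69.1 CPM, and wt males 53.8 (male 17), 83.5, 92.0 and 79.2 CPM, a log2 fold change of 0.081 that became -0.065 without male 17. 16p11.2 del/+ males had 52.6, 47.6, 48.1 and 54.4 CPM and wt males 44.2, 46.9, 52.2 and 45.5 CPM, a log2 fold change of 0.10 (adjusted p = 0.791 by edgeR) that was 0.064 without del/+ male 4. A difference between the sexes was tested as an interaction in edgeR. For Foxp2 it was 0.26 in the 3g line (adjusted p = 0.901) and 0.30 in the 16p11.2 line (SE 0.099, adjusted p = 0.835), neither past the threshold. Without 3g wt male 17 the first was 0.12, and without 16p11.2 del/+ male 4 the second was 0.25. Lysate RNA of other males gave Foxp2 log2 fold changes of -0.20 in the 3g line and 0.057 in the 16p11.2 line. Over the 40 members, 0 interactions with sex were called in either line (0% of 19830 and 0% of 18870 genes). The 16p11.2 fit counts the library labelled del/+ female 1, which held Ddx3y and little Xist, as female. Without it 0 of 40 members were called (0% of 19054 genes), and the Foxp2 value of that fit is not given here. With all libraries, 0 members passed an unadjusted p of 0.05 in the 3g line and 1, Foxp2, in the 16p11.2 line, where 2.69% and 4.33% of all genes did. The median interaction of the members was 0.076 in the 3g line and 0.0034 without wt male 17, and 0.10 in the 16p11.2 line and 0.018 without del/+ male 4.

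A few other members separated the genotypes without passing the test. Mbd5, a methyl-CpG-binding domain protein, had 79.3, 81.8, 79.9 and 79.1 CPM in 3g del/+ females and 75.2, 75.0, 74.1 and 78.1 CPM in wt females. All del/+ values lay above the wt values by a narrow margin, with a log2 fold change of 0.082 (SE 0.031, adjusted p = 0.378 by edgeR). Setd2, which trimethylates lysine 36 of histone H3, was also at an unadjusted p under 0.05 in 3g females, at 0.092 (adjusted p = 0.391 by edgeR). Chd2, a remodelling ATPase, had 59.1, 52.2, 50.1 and 58.1 CPM in 16p11.2 del/+ females and 66.5, 62.0, 61.0 and 61.4 CPM in wt females. Its log2 fold change was -0.19 (SE 0.069, adjusted p = 0.998 by edgeR), and the groups did not overlap. Without the library labelled del/+ female 1 it was -0.23 (adjusted p = 0.754 by edgeR).

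In 16p11.2 males Asxl3 had 9.10, 9.46, 9.25 and 11.9 CPM in del/+ and 7.15, 8.31, 6.44 and 8.86 CPM in wt libraries, a log2 fold change of 0.37 (SE 0.15, adjusted p = 0.742 by edgeR). Kmt2c, a methyltransferase that marks enhancers, had 85.4, 91.3, 84.5 and 109.8 CPM in del/+ and 67.6, 84.3, 81.7 and 81.3 CPM in wt libraries, at 0.24 (SE 0.11, adjusted p = 0.742 by edgeR). For both, all del/+ values exceeded all wt values, del/+ male 4 was the highest, and the fold changes without it were 0.27 and 0.14. They were the only 2 of the 40 members without overlap there, where 3.85% of all genes had none. No member was without overlap in 3g males (1.95% of all genes).

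In lysate RNA of males, 0 of 40 members were called in either line by edgeR or DESeq2 (background 0.0209% of 14378 genes in the 3g line and 0.133% of 14330 in the 16p11.2 line). An unadjusted p under 0.05 was reached by 1 member in the 3g line, Satb1, and by 0 in the 16p11.2 line, where 4.92% and 4.41% of all genes did. The direction seen in the RNA-seq males was not found in these animals: 14 of 40 members were above 0 in the 3g line (median -0.035, against 49.7% of all genes) and 19 of 40 in the 16p11.2 line (median -0.024, against 50.4%). Ubn2 had log2 fold changes of -0.0058 and 0.056, and Tet2 of -0.19 and -0.028, in the 3g and 16p11.2 lines. The methyltransferases had 5 of 8 and 4 of 8 above 0.

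In 3g lysate RNA 4 members did not overlap (Adnp, Kdm5b, Pogz and Setd2, all lower in del/+), where 9.65% of all genes did not. Adnp had 60.9, 59.4 and 62.2 CPM in del/+ and 68.5, 69.7 and 64.5 CPM in wt animals, a log2 fold change of -0.15 (SE 0.093, adjusted p = 0.940 by edgeR). Kdm5b, a demethylase of lysine 4 of histone H3, had 46.8, 45.8 and 47.1 CPM in del/+ and 53.5, 49.2 and 52.1 CPM in wt animals, also at -0.15 (SE 0.094, adjusted p = 0.944 by edgeR). Neither passed the test. In the 16p11.2 line Ankrd11, a nuclear ankyrin repeat coregulator, was the only member without overlap (5.71% of all genes). It had 85.3, 96.2 and 98.0 CPM in del/+ and 99.6, 98.6, 104.3 and 107.4 CPM in wt animals, at -0.14 (SE 0.096, adjusted p = 0.990 by edgeR).

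Ribosome footprints count the fragments of mRNA that ribosomes protect, and so report how much a transcript was being translated. Counts were low, and 39 members passed the filter in the 3g line (not Asxl3) and 38 in the 16p11.2 line (neither Asxl3 nor Tcf7l2). In both, 0 were called (background 0.0132% of 7553 and 0.117% of 5964 genes). At an unadjusted p under 0.05 stood 1 of 39 and 0 of 38, where 7.97% and 6.15% of all genes did. Members above 0 numbered 23 of 39 (48.7% of all genes) and 19 of 38 (49.1%). The median standard error was 0.26 in both lines, so that a change of the size seen for Foxp2 RNA in females was not detectable at this depth.

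Tcf20 was the member at an unadjusted p under 0.05 in 3g footprints. It had 405, 489 and 432 CPM in del/+ and 339, 269.9 and 288 CPM in wt animals, a log2 fold change of 0.57 (SE 0.22, adjusted p = 0.520 by edgeR). All 3 del/+ animals lay above all wt animals. Adnp had 63.0, 59.8 and 91.8 CPM in del/+ and 48.8, 37.8 and 53.6 CPM in wt animals, at 0.61 (SE 0.31, adjusted p = 0.659 by edgeR). With Chd7, these were the 3 of 39 without overlap (13.3% of all genes), in a line whose del/+ footprint libraries also had more counts, and the part of depth was not tested. The 8 methyltransferases were all above 0 in 3g footprints (median 0.20, from 0.019 to 0.41), as in the RNA-seq males, but 3 of 8 were in 16p11.2 footprints. In the 16p11.2 line Nsd1, which dimethylates lysine 36 of histone H3, had 115.7, 144.6 and 116.3 CPM in del/+ and 156.2, 152.0, 156.0 and 156.2 CPM in wt animals. It was the only member without overlap (6.69% of all genes), at -0.30 (SE 0.21, adjusted p = 0.909 by edgeR).

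Translational efficiency, the change of footprints beyond that of lysate RNA, was tested as an interaction. Both kinds of library came from the same animals, but the main fit did not hold the animal as a block. None of the 40 members was called in either line (0% of 15137 and 0.00664% of 15071 genes). With the animal as a block, 0 of 40 were again called in the 3g line, where 43 of 15656 genes were (0.275%). Single members of the 3g line are given from the fit without the block, and their values with it are not given here. Bcl11a, Tcf20 and Adnp passed an unadjusted p of 0.05 in the 3g line, at log2 values of 0.72, 0.50 and 0.80 (adjusted p = 0.553, 0.641 and 0.524 by edgeR; 7.67% of all genes passed unadjusted). Nsd1 alone did in the 16p11.2 line, at -0.43 (adjusted p = 0.799; 6.24% of all genes). With the animal as a block it was at -0.38 with an unadjusted p of 0.0739 by edgeR, and 0 members of that line passed unadjusted. The member median was 0.12 in the 3g line, 0.29 without wt animal 3 and -0.015 without wt animal 2. Single animals also turned single genes: Tet2 in 3g footprints went from -0.11 to 0.50 without wt animal 3, Nfix from -0.054 to 0.40 without wt animal 1, and the efficiency of Kmt5b from 0.12 to 0.62 without wt animal 3. In the 16p11.2 line the efficiency of Tcf7l2 went from 0.25 to -0.46 without del/+ animal 1, that of Tet2 from 0.23 to -0.17 without del/+ animal 2, and Med13 footprints from -0.22 to 0.13 without wt animal 3. Leaving out 1 library in turn changed the sign of 26 and 9 of the 40 members in RNA-seq of 3g males and females, and of 16 and 25 in the 16p11.2 line. It did so for 15 and 19 of 40 in lysate RNA and for 21 of 39 and 20 of 38 in footprints of the 3g and 16p11.2 lines. A change of sign with a move over 0.2 occurred for 12 of 39 and 10 of 38 members in footprints, for 0 of 40 in either lysate comparison, and in RNA-seq for 3 and 0 of 40 members in 3g males and females and for 1 and 1 in 16p11.2 males and females.

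Since levels changed with the line, wt females of the lines were compared directly, a comparison added after the data were seen. The lines were also separate sets of libraries, so line and set cannot be told apart. In RNA-seq, 26 of 40 members (65%) were called by edgeR, where 59.9% of 19013 genes were, so that the share of calls was near the background. Their direction was less even: 24 members (60%) were called higher in 3g wt females, where 30.1% of all genes were, and 2, Satb1 and Nfix, were called lower. The median of the members was 0.25 on the log2 scale and that of all genes 0.0068. Leaving out each library in turn gave 25 to 29 calls.

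Tcf7l2, Ubn2, Tet2, Dnmt3a and Kmt2a had the largest differences among those higher in 3g wt females. Ubn2 had 91.6 ± 8.28 CPM in 3g and 50.3 ± 7.46 CPM in 16p11.2 wt females (SD, n = 4), a log2 difference of 0.86 (SE 0.10, adjusted p = 5.14e-05 by edgeR). Tet2 had 67.6 ± 6.32 and 40.2 ± 6.86 CPM, at 0.74 (SE 0.11, adjusted p = 0.000224). Kmt2a, a methyltransferase of lysine 4 of histone H3, had 258 ± 25.1 and 169 ± 16.5 CPM, at 0.61, Dnmt3a 193 ± 10.04 and 123 ± 10.5 CPM, at 0.64, and Tcf7l2 7.501 ± 1.42 and 3.51 ± 0.554 CPM, at 1.10. Pogz, a zinc finger protein that binds heterochromatin protein 1, was at 0.58, Foxp2 at 0.43 and the remodeller Chd8 at 0.43. None of these groups overlapped. These members were named after their values were seen, and the share of all genes without overlap was not computed for this comparison. Members at the threshold were Nsd1, just inside with an adjusted p of 0.0498, and Asxl3, just outside with 0.063. Members with values near 0 were Setd2 (0.024), Adnp (0.025), Mbd5 (0.040), Tcf20 (0.041) and Ctcf (-0.044).

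In lysate RNA of wt males, 0 of 40 members were called between the lines by edgeR, where 0.0139% of 14417 genes were, and 10 passed unadjusted, where 10.8% did. DESeq2 called Foxp2 and Tcf20. Only 16 of 40 members were higher in the 3g line, with a median of -0.041. Ubn2 had the opposite sign (-0.31, 95% interval from -0.64 to 0.0058), Tet2 was at 0.26 (0.022 to 0.50), Dnmt3a at 0.14 (-0.078 to 0.37) and Kmt2a at 0.12 (-0.22 to 0.46). Foxp2 was at 0.44 (adjusted p = 0.240 by edgeR), and Satb1 and Nfix were at -0.38 and -0.29, none of them past the threshold. In footprints 0 of 38 members were called (0.241% of 6633 genes) and 4 passed unadjusted (10.5%), and DESeq2 called Tcf20, which was at -0.92 (adjusted p = 0.114 by edgeR). Sex, animals and preparation all differ between the kinds of library, and the difference between them was not tested.

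**Figure D5:**
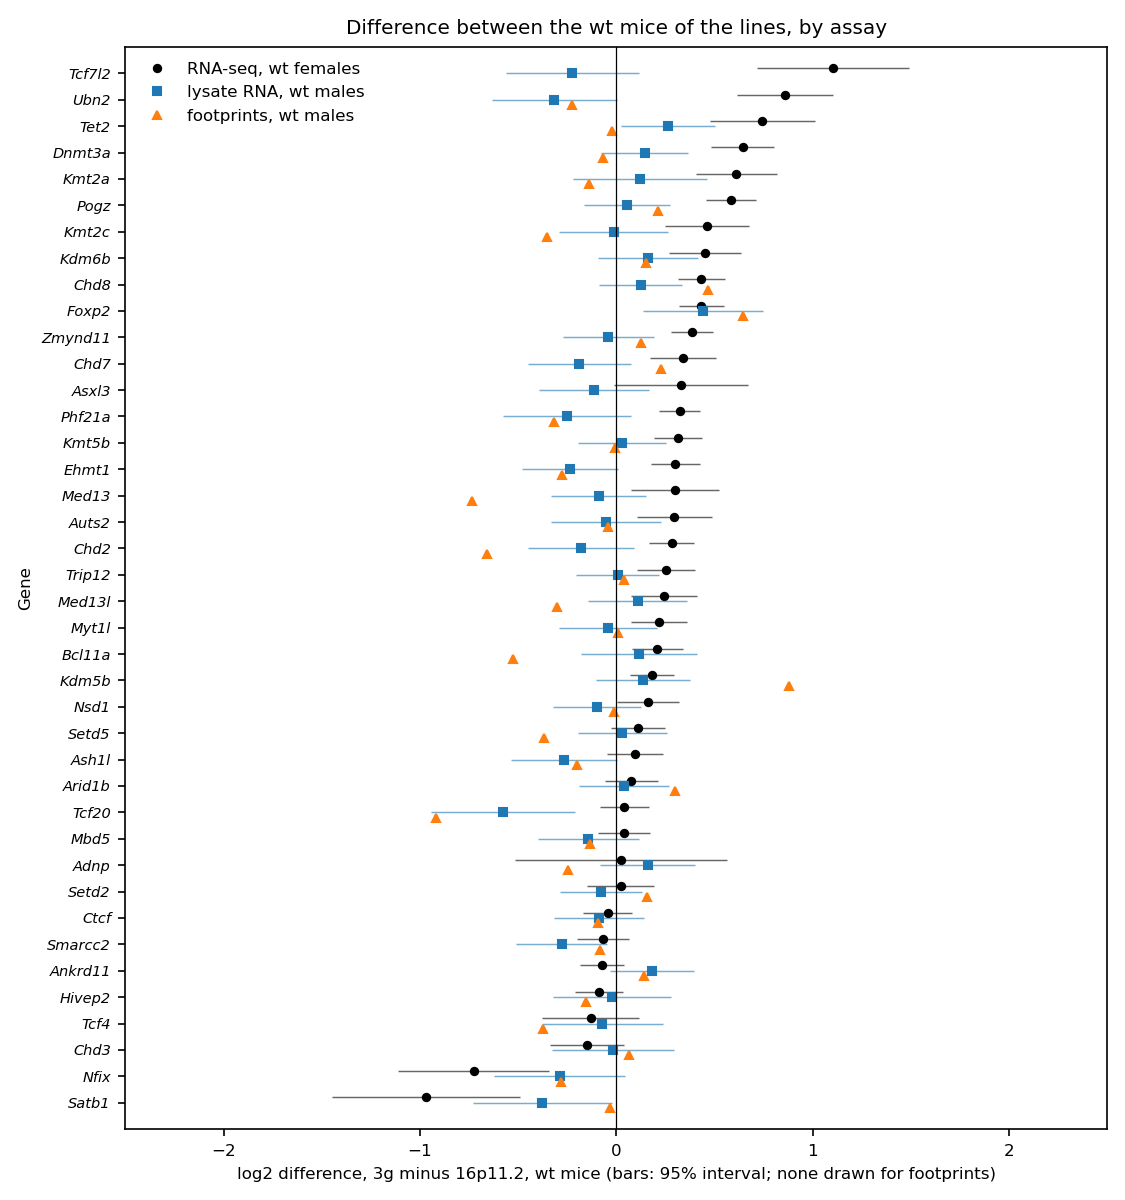
Log2 difference of wt levels, 3g minus 16p11.2, for the members in RNA-seq of females and lysate RNA of males (points with 95% intervals) and in footprints of males (points only). In RNA-seq 32 of 40 members lie above 0, in lysate RNA 16 of 40 do, and Ubn2 changes sign between the kinds of library.

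Promoter sequence is shown for Ubn2 and Tet2, which carry the pattern between libraries and lines most plainly, and for Kmt2a, the histone methyltransferase with the largest difference between the lines. Each stretch, from RefSeq, is the 100 bases before the transcription start of its promoter entry in assembly GRCm38.p6, 5′ to 3′ on the gene's strand. The GC box GGGCGG, or CCGCCC on the other strand, is in capitals. For Tet2 and Kmt2a, both on the minus strand, that start lies inside the gene, whose listed spans reach 133545136 and 44881352. Tet2 lies at chr3:133544391-133544490 (minus strand), Ubn2 at chr6:38433825-38433924 (plus strand) and Kmt2a at chr9:44881290-44881389 (minus strand).
Tet2: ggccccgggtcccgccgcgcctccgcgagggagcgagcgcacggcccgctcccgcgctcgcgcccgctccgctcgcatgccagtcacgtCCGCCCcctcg
Ubn2: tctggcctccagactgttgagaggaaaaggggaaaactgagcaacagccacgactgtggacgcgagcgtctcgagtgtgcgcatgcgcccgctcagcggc
Kmt2a: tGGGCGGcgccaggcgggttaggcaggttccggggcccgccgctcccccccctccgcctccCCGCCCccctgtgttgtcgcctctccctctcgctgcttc
All 3 are rich in G and C, Kmt2a holds the box on both strands, Tet2 holds it once and Ubn2 does not hold it in these letters. In windows from 250 bases before to 50 after the start, 30 of the 40 members had an entry, and 23 of these (76.7%) held GGGCGG on either strand against 35.9% of the 27025 promoters with an entry. TATAAA was in 0 of 30 against 14.2%, CCAAT in 6 (20%) against 37.9%, CACGTG in 1 (3.33%) against 7.24% and CCGGAAG in 2 (6.67%) against 9.12%. The median GC content of the window was 70% in members and 52.7% over all promoters. Of the 20 members called between wt females that had an entry, 14 held the GC box, and of the other 10, 9 did. These are matches of letters and say nothing of binding.

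In some libraries high Satb1 and Nfix stood beside high markers of cortical excitatory neurons (Slc17a7, Neurod6, Neurod2, Tbr1 and Slc30a3, summed), whose part in the result was not tested. In 3g wt females the sum was 583 CPM in wt female 39 and 116 to 162 CPM in the other 3, and Satb1 was at 48.0 CPM in that library and at 27.3 to 28.9 CPM in the others. In 3g del/+ females the sum was 164 to 665 CPM and Satb1 31.8 to 39.7 CPM. With all 8 libraries the log2 fold change of Satb1 in 3g females was 0.17, and without wt female 39 it was 0.40 (adjusted p = 0.0411 by edgeR), the single member call made by leaving out a library. That fit called 175 of 19125 genes, against 1 of 19024 with all 8 libraries. In the 16p11.2 line, wt male 4 had the highest sum, 1306 CPM, with 104.3 CPM of Satb1 and 136.2 CPM of Nfix, where the other 3 wt males had 53.0 to 56.7 CPM of Satb1. wt female 3 had a sum of 1224 CPM, 87.0 CPM of Satb1 and 126.4 CPM of Nfix. Sums as high did not always go with such levels: the library labelled del/+ female 1 had a sum of 1281 CPM with 73.8 CPM of Satb1 and 101.9 CPM of Nfix, and del/+ male 2 had 1256 CPM with 63.8 and 104.5 CPM. In 3g males the log2 fold change of Satb1 went from -0.12 to 0.23 and that of Nfix from -0.16 to 0.16 without wt male 17, and in 16p11.2 males that of Satb1 went from -0.0056 to 0.29 without wt male 4. Adnp, with 2 to 38 counts in a RNA-seq library, changed sign in 3g males (0.22 to -0.021 without del/+ male 33) and in 16p11.2 females (-0.020 to 0.19 without del/+ female 3).

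Between the kinds of library the levels of some members differed widely. The ratio of the wt medians of lysate RNA to RNA-seq had a median of 1.20 over the members, and ranged from 0.347 to 7.07 without Adnp. Adnp was at 0.620 CPM in RNA-seq, at 61.2 CPM in lysate RNA and at 39.3 CPM in footprints, a lysate to RNA-seq ratio of 98.8. Tcf20 was at 153, 1082 and 365 CPM and Ubn2 at 58.0, 342 and 84.4 CPM. In the other direction, Chd3 was at 687, 238 and 320 CPM and Ankrd11 at 276, 112 and 169.8 CPM. Footprints over lysate RNA ranged from 0.247 (Ubn2) to 2.13 (Kmt2a). The lysate and footprint counts come from another genome build and other counting than the RNA-seq counts, and mitochondrial genes took 37.7 to 51.8% of lysate counts and 5.06 to 7.52% of RNA-seq counts in all but the 2 displaced libraries, so these ratios do not compare the animals.

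Of 116 further genes of the same complexes and pathways, 112 to 115 were tested in RNA-seq and lysate RNA and 93 and 84 in footprints, and none was called in any comparison by edgeR. Of those tested, 80 of 115 were above 0 in 3g males and 72 of 114 in 16p11.2 males, against 59 of 113 and 41 of 113 in females and 35 of 112 and 50 of 114 in lysate RNA. The shares of all genes above 0 were the 49.1 to 50.4% given beside the members. Without 3g wt male 17 it was 68 of 115 in 3g males (49.3% of all genes), without 16p11.2 del/+ male 4 it was 61 of 114 in 16p11.2 males (49.2%), and without the library labelled del/+ female 1 it was 37 of 113 in 16p11.2 females (48.2%).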

How the data were processed

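Striatal RNA was measured by RNA-seq in 32 libraries, and lysate RNA and ribosome footprints in 13 libraries each. The authors deposited 6 tables of counts per gene, raw and not normalized; all values were whole numbers. Per the labels the RNA-seq counts came from HTSeq on mm10 and the other counts from Bowtie2 alignments to mm39. Tool versions, annotation and the strand setting are not given in the sources used here. The labels call the molecule polyA RNA and name human brains in the extraction text, whereas the study's methods name ribosomal RNA depletion of mouse striatum. Every column had a sample. Each animal is taken as a separate sample.

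The 40 members were matched by symbol. Counts were filtered (filterByExpr), TMM-normalized and tested with edgeR 4.0.16 (R 4.3.3, limma 3.58.1) by quasi-likelihood, del/+ against wt per line, sex and kind of library, over all genes, with Benjamini-Hochberg adjustment and a threshold of 0.05. CPM per comparison are scaled within it, and CPM set across all RNA-seq libraries are scaled over the 32. Alternatives were DESeq2 1.42.0, RLE normalization, no filter, all libraries of a line in 1 fit, a replicate block and each library left out. The code was tested on simulated counts. The members and gene lists were chosen with earlier results of these data known. An entry of the lists is not reported here and was left out of their sums and counts. Libraries are described one by one for members called, for the 2 members per comparison with the largest fold change without overlap, for Ubn2 and Tet2, for the 3 highest, lowest and most variable members, and for those most moved by 1 library; Dnmt3a, Setd2 and the members named between lines were added after their values were seen. Numbers pair footprint and lysate libraries of 1 animal (correlation of deviations 0.046 to 0.13), and the 3g RNA-seq groups share no numbers. Total counts bound the precision, and intervals cover the spread between these libraries.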

Additional observations from a re-analysis of the deposited data

Results flagged for a closer look

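In 6 of 46 groups of 4 libraries tested, 1 library lay far from the other 3. Chance flags about 1 in 20 groups that are independent and not chosen on their values. Here the groups reuse libraries, and many were chosen for lack of overlap or wide spread, so the count cannot be set against that rate. Tet2 was at 67.2 CPM in 16p11.2 del/+ male 4 and at 41.1 to 41.4 CPM in the other del/+ males, and Asxl3 was at 11.9 CPM there and at 9.10 to 9.46 CPM in the others. Satb1 was at 104.3 CPM in 16p11.2 wt male 4 (others 53.0 to 56.7) and at 48.0 CPM in 3g wt female 39 (others 27.3 to 28.9). Both of these libraries had the highest cortical marker sum of their group, and its part was not tested. Nsd1 footprints were at 152.0 CPM in 16p11.2 wt animal 2 and at 156.0 to 156.2 CPM in the others, a gap that stands out only because those 3 lie close together. On the scale from 0 (3g wt females) to 1 (16p11.2 wt females), the median position of the members was 0.703 in 16p11.2 wt female 4 and 1.05 to 1.11 in the other wt females of its line, whose values helped to choose those members.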

How the results depend on the processing

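Direction under the alternatives was checked for 16 pairs of a named member and a genotype comparison. None of these was called in the main fit, so no called value was there to reverse. Among them, 184 alternative values kept the sign and stayed uncalled, and 2 kept the sign and became calls. Over all members, leaving out 1 library changed signs more often, for 26 of 40 members in RNA-seq of 3g males. Of the main results, 261 alternative values stayed within the limits set and 8 moved. For a median the limit was an SD between libraries, 0.13 for 3g male RNA-seq and 0.11 for 16p11.2 male RNA-seq. These limits were wide: the fall from 0.079 to -0.0023 without 3g wt male 17 lay inside them. So did the fall from 0.097 to 0.024 without 16p11.2 del/+ male 4. The count of 261 therefore does not show that the upward lean of males was stable. In 3g females 0 members were called, DESeq2 called 1 and the fit without a filter on low counts 1 (Foxp2 in both, where they called 109 and 158 of 36207 genes), and leaving out 1 library gave 0 to 1 (Satb1, without wt female 39). Between wt males of the lines, DESeq2 called 2 members in lysate RNA and 1 in footprints, and the fit without a filter 1 in footprints, against 0, where over all genes DESeq2 called 162 of 18283 and 68 of 17435 and the fit without a filter 175 of 17435. Without 1 library in turn, the median of the members ranged from -0.030 to 0.016 in 16p11.2 lysate RNA and from -0.015 to 0.19 in 3g footprints. A replicate block on the numbers of the 16p11.2 RNA-seq libraries, which share only a number (correlations of -0.26 to 0.11), called 0 members in males, females and the interaction, with medians of 0.085 in males and -0.031 in females. Pairing footprints with lysate RNA by animal as a block called 0 members in either line, where over all genes the calls went from 0 to 43 in the 3g line and from 1 to 13 in the 16p11.2 line, and the cause was not tested. Footprint depth limits what could be detected there.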
